A study of Mus musculus with 2 samples.

Results

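The hypoxia-inducible factor (HIF) pathway was described in haematopoietic stem and progenitor cells of the mouse through 10 genes: the oxygen-regulated factors Hif1a, Epas1 and Hif3a, their partner Arnt, the prolyl hydroxylases Egln1, Egln2 and Egln3, the ubiquitin ligase subunit Vhl, and the target genes Vegfa and Bnip3. They were chosen by name among 20655 gene symbols on the array, with earlier results of these data known, so their ranks below are no test. Probes were matched through their RefSeq accessions, and 20 probes were found for the 10 genes. The cells were LSK cells, sorted by flow cytometry as negative for lineage markers and positive for Sca-1 and c-Kit, a fraction that holds the blood stem cells and multipotent progenitors. One group was bone marrow from wild-type, untransplanted C57BL/6 mice at 8 weeks of age. The other was fetal liver from wild-type, untransplanted embryos at E14.5, for which the labels used here gave no strain. Each group was 1 single-colour Agilent array, made from 20 ng of total RNA.

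HIF proteins are transcription factors made of an alpha subunit and the beta subunit Arnt. In oxygenated cells the Egln enzymes hydroxylate prolines of the alpha subunits, and the Vhl complex then marks them for degradation, so the activity of the pathway is set largely on the protein and is not read from the alpha subunits' RNA. When oxygen is low the pair binds hypoxia response elements and activates genes of glycolysis, vessel growth and mitophagy. In the bone marrow, blood stem cells are known for a glycolytic metabolism that has been linked to Hif1a.

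Of the 10 genes, 2 differed at least 2-fold, 1 toward fetal liver, as did 6.76% of the 13385 genes above background on either array, and 1 toward bone marrow, as did 8.14%. Hif3a was 21.7-fold higher in fetal liver LSK cells, and Vegfa was 7.10-fold higher in bone marrow LSK cells. The other genes measured on both arrays, 7 in number, lay between -0.02 and 0.51 on the log2 scale, and Egln1 gave only a bound. The factors Hif1a, Epas1 and Arnt, the hydroxylases Egln2 and Egln3, Vhl and Bnip3 were thus all present in both populations and under 2-fold apart.

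Short sequences upstream of the start sites are shown for the genes with the largest differences, Hif3a and Vegfa, and for Bnip3, a HIF target that differed little. They are the 250 bases before the RefSeq start on assembly GRCm38.p6, written 5′ to 3′ on the gene's strand, and capitals mark the core of the hypoxia response element, ACGTG or GCGTG, or its reverse complement. The Hif3a window is chr7:17062428-17062677 on the minus strand, the Vegfa window, of the outermost start, is chr17:46032378-46032627 on the minus strand, and the Bnip3 window is chr7:138909507-138909756 on the minus strand.
Hif3a: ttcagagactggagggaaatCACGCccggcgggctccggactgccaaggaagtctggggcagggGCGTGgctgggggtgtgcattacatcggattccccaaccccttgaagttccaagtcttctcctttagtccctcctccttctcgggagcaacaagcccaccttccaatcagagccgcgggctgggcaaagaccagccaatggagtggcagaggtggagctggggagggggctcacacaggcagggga
Vegfa: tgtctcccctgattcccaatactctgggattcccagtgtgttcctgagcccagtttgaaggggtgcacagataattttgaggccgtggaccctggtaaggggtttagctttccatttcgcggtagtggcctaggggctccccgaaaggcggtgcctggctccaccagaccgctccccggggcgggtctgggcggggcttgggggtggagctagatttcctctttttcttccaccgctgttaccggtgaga
Bnip3: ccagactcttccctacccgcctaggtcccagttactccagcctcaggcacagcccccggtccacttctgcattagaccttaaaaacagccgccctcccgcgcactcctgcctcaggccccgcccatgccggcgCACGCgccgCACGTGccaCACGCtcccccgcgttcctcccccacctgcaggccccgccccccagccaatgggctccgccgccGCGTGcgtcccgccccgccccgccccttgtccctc

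The Hif3a window held 2 matches, both of GCGTG, of which the one on the gene's strand began 186 bases upstream of the start. No match was found in the printed Vegfa window, and the window of another RefSeq start of Vegfa held 1 of each core. The Bnip3 window held 2 matches of ACGTG, which overlap on opposite strands as 1 palindrome CACGTG, and 3 of GCGTG. RefSeq windows were matched for 9 of the 10 genes (11 windows), and 9 of these windows held either core, against 38.6% of all 32851 windows of this length. ACGTG alone was in 16.6% of all windows, GCGTG in 28.2% and CACGTG in 6.02%. Both cores hold a CG step, and the median GC content was 59.6% in the members' windows and 52.4% in all windows. A match is a run of letters and was not tested as a binding site, and bases further upstream were not searched.

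Levels below are log2 of the processed signal relative to the 75th percentile of the same array, and each difference is fetal liver minus bone marrow. The figure after ± is the software's own technical error of the difference, near 0.20 for bright probes printed once. It is not the spread between repeated spots, which was 0.06 in the brightest of 3 equal groups of probes printed many times. Since there was 1 array per group, no difference has a replicate check, no test across samples was possible, and a difference of at least 2-fold was used as a threshold of size. Tissue, age and slide differed together between the arrays and cannot be told apart, and whether strain also differed is not known here. The share of probes well above background was 47.4% for bone marrow and 46.4% for fetal liver, and the lowest such signals were 12.4 and 9.82. In these bulk samples, fewer cells of a type and less RNA per cell cannot be told apart.

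**Figure D1:**
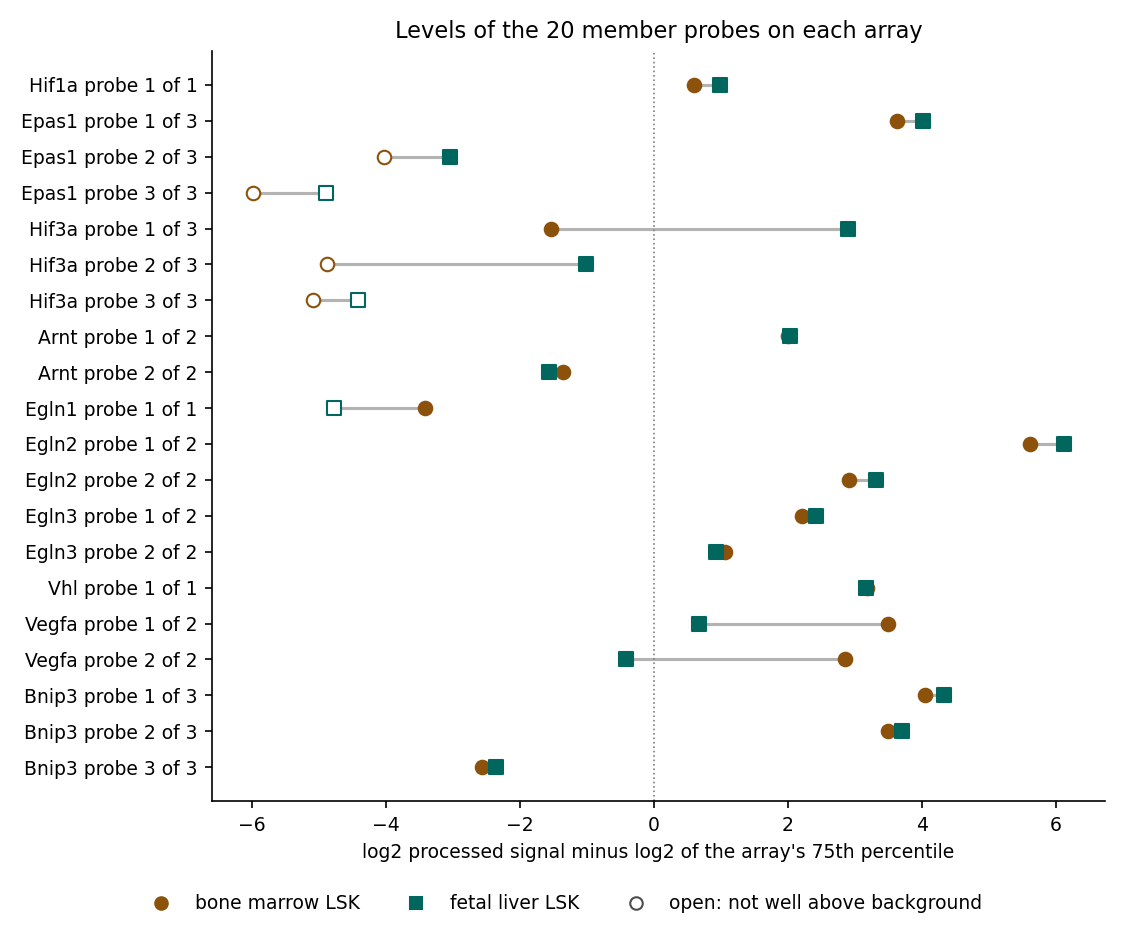
Level of each of the 20 probes of the 10 genes in bone marrow (circles) and fetal liver (squares), as log2 signal relative to the array's 75th percentile, with open symbols for signals not well above background. The wide gaps are those of Hif3a, from -1.53 to 2.91 on its brightest probe, and of Vegfa, from 3.51 to 0.68, and probes of other genes that are filled on both arrays lie close together.

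Among the alpha subunits, Hif1a, the broadly expressed factor, stood at 0.60 in bone marrow against 0.99 in fetal liver and differed by 0.39 ± 0.20 on its 1 probe. Epas1, which encodes HIF-2 alpha and is known for its role in endothelium and in erythropoietin control, stood at 3.64 in bone marrow and 4.02 in fetal liver on its brightest probe (0.38 ± 0.20). These were ratios of 1.31 and 1.30, and 48.6% and 49.9% of all measured genes had differences at least as large in either direction. The other probes of Epas1 carry the same accession and gave little signal. One read 10.9 in bone marrow, not well above background, and 16.3 in fetal liver, which puts fetal liver above by at least 1.76-fold. The other stayed near background on both arrays, at signals of 2.82 and 4.52. The Epas1 value therefore rests on 1 of its 3 probes.

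Hif3a encodes the third alpha subunit, whose transcripts in mouse include short forms such as IPAS, an inhibitor of the other factors, and NEPAS, a form of embryonic and neonatal tissue. Its brightest probe read 61.8 in bone marrow against 1005 in fetal liver. The levels were -1.53 and 2.91, so that the fetal liver cells were 21.7-fold higher (4.44 ± 0.21). Only 21 of 13385 measured genes, bounds included, had a difference further toward fetal liver. The next probe read 6.11 in bone marrow, not well above background, and 66.4 in fetal liver, a ratio of at least 7.16-fold toward fetal liver. The dimmest probe was near background on both arrays, with signals of 5.28 and 6.27. All 3 probes carry the accession NM_016868, so the array values do not say which form of the transcript was present. Under normexp background correction the Hif3a difference was 3.54, and it was 4.11 with scaling by the spike-in controls.

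Some markers of other cell types also differed toward fetal liver, and their part in the Hif3a result was not tested. Over all measured genes, 6.76% were past 2-fold toward fetal liver and 8.14% toward bone marrow. Under spike-in scaling these shares were 3.83% and 13.0%. Of the 8 erythroid markers, 3 were past 2-fold toward fetal liver, and the list's summed signal, in units of each array's 75th percentile, was 101 in bone marrow and 769 in fetal liver, most of it from the beta-globin gene Hbb-bt. Of the 9 endothelial markers, 4 were past 2-fold toward fetal liver, 0 were past it toward bone marrow, and the summed signals were 54.2 and 82.9, most of them from Kdr, which differed by 0.61. Pecam1 of this list lay on the other side at -0.84, and at -1.17 under spike-in scaling. All endothelial markers were well above background on at least 1 array.

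Arnt, the shared beta subunit, differed by 0.04 ± 0.20 on its brightest probe, with signals of 716 and 550 before scaling. Its dimmer probe was at -0.21 ± 0.22. Both values lay within about 1 technical error of 0.

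The prolyl hydroxylases are the oxygen sensors of the pathway. Egln1 (PHD2), the main hydroxylase of Hif1a in most cells, was poorly measured: its only probe read 16.7 in bone marrow, close to the detection limit, and 4.92 in fetal liver, not well above background. The bound was thus at least 1.28-fold toward bone marrow, with no allowance for technical error, and the size beyond it is not known. Under normexp background correction the bound came to under 1-fold, so the direction was not secured for Egln1. Egln2 (PHD1) had bright probes, with levels of 5.62 and 6.13 on one and 2.92 and 3.31 on the other. Its differences were 0.51 ± 0.20 and 0.39 ± 0.20, both toward fetal liver. Egln3 (PHD3), itself known as a HIF target, had levels of 2.21 and 2.42 on its brightest probe (0.22 ± 0.20) and 1.06 and 0.93 on the other (-0.13 ± 0.20). The Egln3 probes thus lay on opposite sides of 0.

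Vhl, the subunit that recognises hydroxylated alpha subunits, had the smallest difference of the 9 genes measured on both arrays, at 3.18 in bone marrow against 3.17 in fetal liver (-0.02 ± 0.20).

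Of the target genes, Vegfa, the vascular endothelial growth factor, was lower in fetal liver on both probes. The brighter probe was printed as 2 spots on each array, which read 2030 and 2034 in bone marrow and 211 and 217 in fetal liver. Its levels were 3.51 and 0.68, a difference of -2.83 ± 0.14, or 7.10-fold. The other probe had levels of 2.86 and -0.42, a difference of -3.28 ± 0.21, or 9.70-fold. All Vegfa signals were well above background, and 141 of 13385 measured genes lay further toward bone marrow. The probes share a target and are not replicates of the condition. Some markers of neutrophils, cells known to make Vegfa, were also higher in bone marrow. On that side 4 of the 8 were past 2-fold, as were 8.14% of all measured genes. Ltf at -0.31 and S100a9 at -0.26 were under 2-fold, and S100a8 lay toward fetal liver at 0.15. The summed signals were 135 in bone marrow and 110 in fetal liver, and Mmp9 stayed near background on both arrays. The part of these markers in the Vegfa result was not tested.

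Bnip3, a mitochondrial receptor of mitophagy and cell death that HIF induces, differed by 0.29 ± 0.20, at 4.05 in bone marrow against 4.34 in fetal liver. Its other probes gave 0.20 ± 0.20 and 0.21 ± 0.26, the latter from a dim probe with signals of 30.2 and 26.1. The Bnip3 probes agreed to within their technical error. Egln3, named above as a HIF target, differed by 0.22 on its brightest probe, while Vegfa was 7.10-fold apart.

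**Figure D2:**
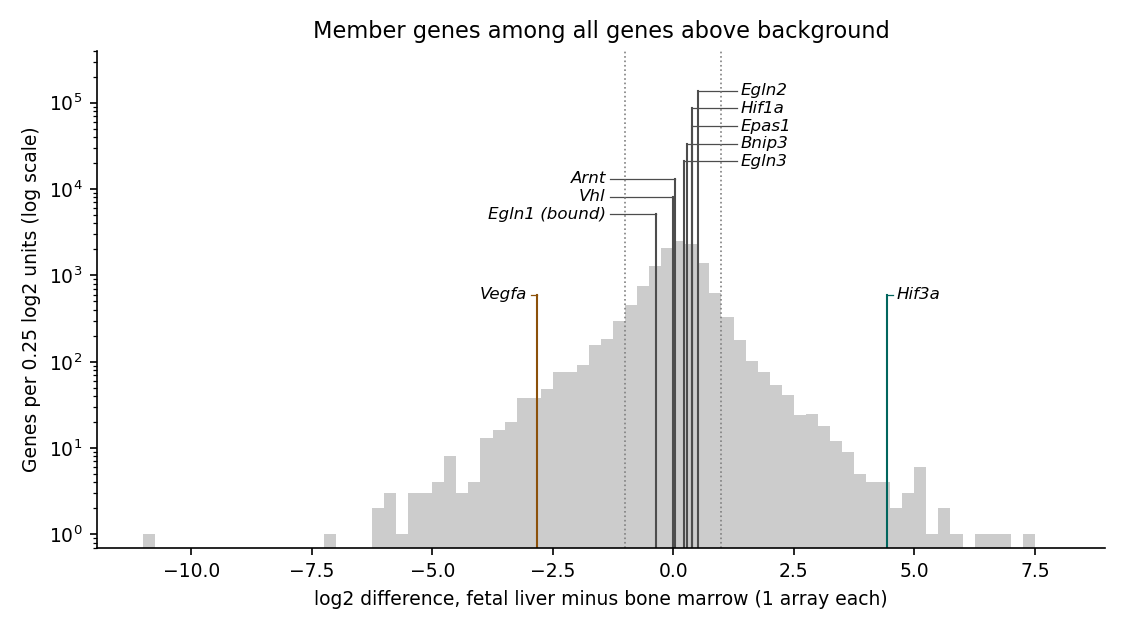
Differences of the 10 genes (lines, each gene by its brightest probe) over the distribution of the 13385 measured genes, with dotted lines at 2-fold and a logarithmic count axis. Hif3a at 4.44 and Vegfa at -2.83 lie in the tails, and the other 7 genes measured on both arrays lie between the dotted lines, while Egln1 at -0.35 is a bound.

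The share of the 10 genes past 2-fold, 1 on each side, is near that of all measured genes. The median difference was 0.25 over the 10 genes and 0.11 over all measured genes. Scaling by the spike-in controls, which lowers every difference by 0.33, moved the median of all genes to -0.23 and the split of 2-fold differences from 905 toward fetal liver and 1090 toward bone marrow to 513 (3.83%) and 1745 (13.0%). Under it the median of the 10 genes was -0.08. Hif3a at 4.11 and Vegfa at -3.16 stayed past 2-fold, while Hif1a stood at 0.06, Epas1 at 0.05, Egln2 at 0.17, Bnip3 at -0.04, Egln3 at -0.12, Arnt at -0.30 and Vhl at -0.35. The sign differed between these scalings for Arnt, Egln3 and Bnip3, while Hif1a, Epas1 and Egln2 were positive and Vhl negative under both.

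**Figure D3:**
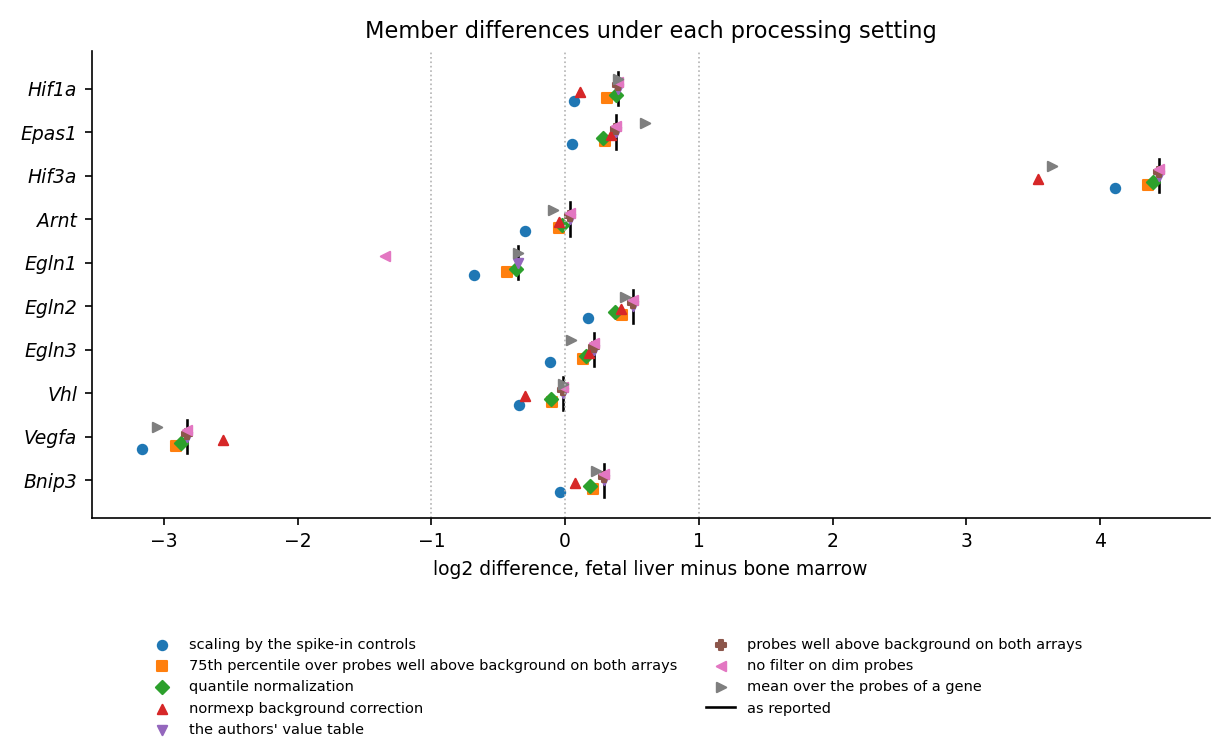
Difference of each of the 10 genes as reported (black lines) and under the alternative processing settings (coloured symbols). Hif3a ranged from 3.54 to 4.44 and Vegfa from -3.16 to -2.56, and Egln1 reached -1.35 where the dim fetal liver signal was taken as measured.

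Other genes of the pathway were read from lists by role. Over all measured genes, 6.76% were past 2-fold toward fetal liver and 8.14% toward bone marrow, the shares to set beside each count. The Vhl ligase and its partners (10 genes, with Vhl itself) had 0 genes at least 2-fold apart in either direction and a median of 0.27, with differences from -0.19 to 0.94. Of 19 other regulators of HIF stability and activity, 0 were past 2-fold toward fetal liver and 1 was past it toward bone marrow, with a median of 0.17. That gene was Siah2, a ubiquitin ligase that targets the Egln enzymes for degradation, at signals of 666 and 141 (-1.82 ± 0.21). Hif1an, the asparagine hydroxylase that blocks coactivator binding by Hif1a, was at 0.56 ± 0.21. Under spike-in scaling 2 of these 19 regulators were past 2-fold toward bone marrow, as were 13.0% of all genes.

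Of 15 partners and relatives of Arnt in the bHLH-PAS family, with their coactivators, 8 were above background and their median was 0.14. Ahrr, the repressor of the aryl hydrocarbon receptor, was the 1 gene past 2-fold, with a bound of 2.17-fold toward fetal liver at a signal of 20.1. It was not past 2-fold under spike-in scaling, where 2 genes of this list were past it toward bone marrow, as were 13.0% of all genes. Without spike-in scaling, 6.76% of all measured genes were past 2-fold toward fetal liver and 8.14% toward bone marrow.

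Among 20 HIF target genes of glycolysis, 2 were past 2-fold toward fetal liver and 1 toward bone marrow, with a median of 0.30, and these counts are near the shares over all measured genes, 6.76% and 8.14%. Slc16a3, the lactate exporter MCT4, read 563 in bone marrow and 1872 in fetal liver (2.15 ± 0.20, or 4.44-fold). Slc2a1, the glucose transporter GLUT1, was at 1.15, and at 0.82 under spike-in scaling. Aldoc, an aldolase, went the other way at -2.33. The classical HIF targets Ldha, lactate dehydrogenase A, at 0.95, Pgk1, phosphoglycerate kinase, at 0.41 and Pdk1, which holds pyruvate back from the mitochondria, at 0.14 were all under 2-fold.

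Other HIF target genes had more members past 2-fold on the bone marrow side. Of 33 listed, 26 were above background, 7 were past 2-fold toward bone marrow and 2 toward fetal liver, and the median was -0.19. The shares over all measured genes were 8.14% and 6.76%, and under spike-in scaling, where the list's counts were also 7 and 2, they were 13.0% and 3.83%. The list was chosen with earlier results of these data known, so its counts are no test against these shares. Bhlhe40, a transcriptional repressor, read 1043 in bone marrow and 11.5 in fetal liver (-6.09 ± 0.33). The fetal liver signal was close to the lowest well-above-background signal of that array, 9.82, so the size of this difference is uncertain. Ndrg1, a stress-response protein, was at -4.29 ± 0.20, and Ddit4, the mTORC1 inhibitor REDD1, at -3.19 ± 0.20. Cxcr4, the receptor that holds blood stem cells in the marrow niche, was at -1.84. These genes lay on the same side as Vegfa. The other 3 on this side were Ak4, Trf and Zfp36l1, between -1.58 and -1.15. The dimmer probe of Ak4 was under 2-fold, at -0.93.

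On the fetal liver side of that list were Stc2, a secreted glycoprotein, with a bound of 5.82-fold at a signal of 53.9, and Ankrd37, an ankyrin repeat protein, at 1.85 ± 0.20. Kitl, the ligand of c-Kit, stayed near background on both arrays. HIF target genes therefore did not share 1 direction: Slc16a3, Slc2a1, Ankrd37 and Stc2 were past 2-fold on the fetal side, Slc2a1 not under spike-in scaling, and Vegfa, Aldoc, Ndrg1 and Ddit4 on the adult side.

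**Figure D4:**
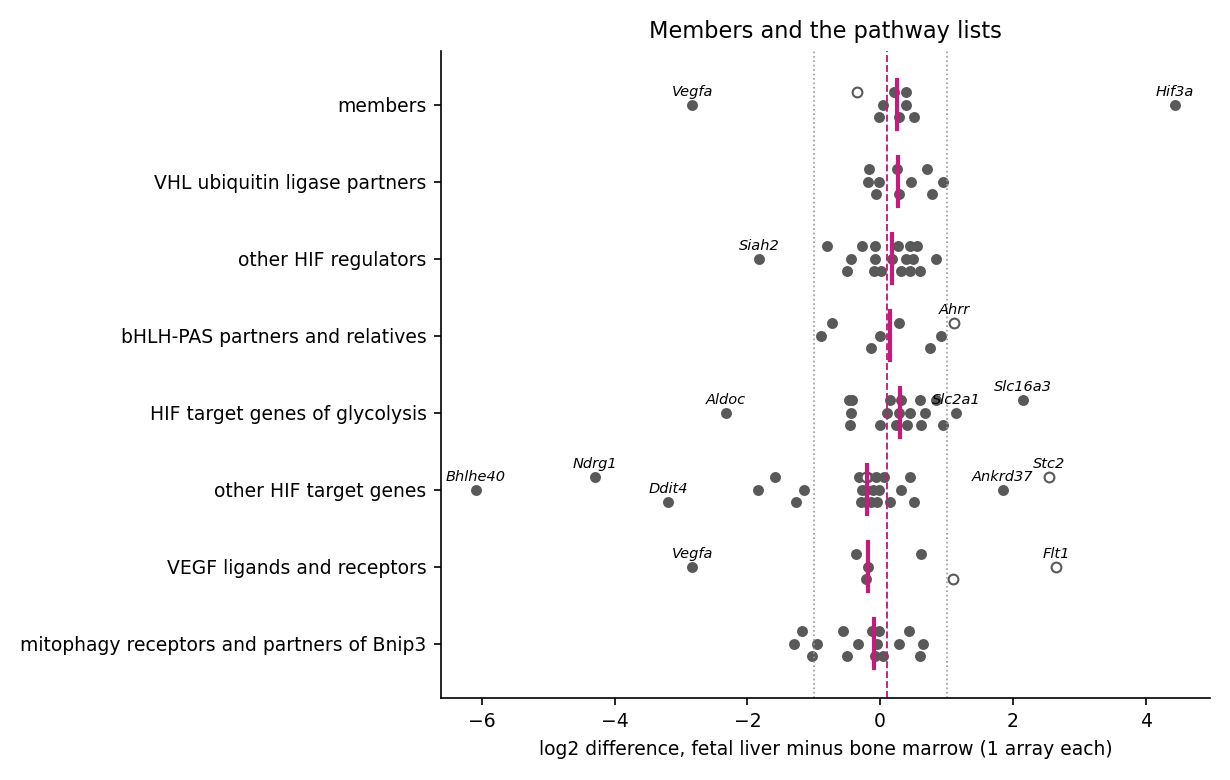
Differences of the 10 genes and of the pathway lists, 1 point per gene above background on at least 1 array (open points are bounds), with the median of each list as a pink bar, the median of all genes (0.11) as a dashed line and 2-fold as dotted lines. The list of other HIF target genes spreads from -6.09 to 2.54, and the list of Vhl ligase partners stays within 2-fold.

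Of the 10 VEGF ligands and receptors, 7 were above background. Vegfa was the 1 gene past 2-fold toward bone marrow, and Flt1 and Nrp2 were past it toward fetal liver, Nrp2 not under spike-in scaling. The shares over all measured genes were 8.14% toward bone marrow and 6.76% toward fetal liver, and 13.0% and 3.83% under spike-in scaling. With only probes detected on both arrays, 0 genes of the list were past 2-fold toward fetal liver. Flt1, VEGF receptor 1, had a bound of 6.28-fold at a fetal liver signal of 58.2, and Nrp2, a VEGF co-receptor, one of 2.14-fold at 19.8. Kdr, VEGF receptor 2 and also an endothelial marker, had signals of 7344 and 8401 and differed by 0.61 ± 0.20, with its other probe at 1.21. Of the 9 endothelial markers, Cdh5, Tek, Plvap and Cldn5 were past 2-fold on the same side as Flt1. Cdh5 was so by a bound of 4.54-fold, and Tek was dim in bone marrow, at a signal of 15.4. Esam at 0.71, Emcn at 0.19, Vwf at 0.15 and Pecam1 at -0.84 were not past 2-fold, nor was Kdr on its brightest probe. The part of these markers in the Flt1 result was not tested.

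Of 17 mitophagy receptors and partners of Bnip3, 16 were above background, with a median of -0.10. Past 2-fold were 0 toward fetal liver, where 6.76% of all measured genes lay, and 3 toward bone marrow, where 8.14% lay. Under spike-in scaling 4 were past 2-fold toward bone marrow, as were 13.0% of all genes. The 3 were the autophagosome proteins Map1lc3a at -1.30 and Map1lc3b at -1.02, and the autophagy cargo receptor Sqstm1 at -1.18. Bnip3l (NIX), the close relative of Bnip3 that clears mitochondria from red cells, was at -0.01 ± 0.20.

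The LSK label was checked on the sort genes. Kit had signals of 4074 and 3063 and differed by 0.01, and Ly6a, which encodes Sca-1, had signals of 3846 and 594 and differed by -2.28, 4.85-fold lower in fetal liver. Of the 9 hepatocyte markers, 6 were well above background on at least 1 array. Past 2-fold toward bone marrow were 2, Afp at -1.26 and Trf at -1.27, where 8.14% of all measured genes lay. The list's summed signals were 91.4 in bone marrow and 47.1 in fetal liver, while Alb, Ttr and Apoa1 stayed near background on both arrays. The B cell genes Cd79a and Ms4a1 stayed near background on both arrays as well, whereas Cd3e, a T cell gene, was above background on both, at 838 and 898.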

How the data were processed

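The deposited values are spot intensities from Feature Extraction 10.7.1.1, per the file headers, with background and spatial trend removed on each array and no scaling between arrays. Its flags and signal errors were also used. The authors' deposited value table is a linear ratio of the processed signal to 1 constant per array (178.6 and 133.9), with column medians of 0.0589 and 0.0604. It is linear and not centred by gene, as this match shows, and the choice of the constants is not described.

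Outlier spots were left out, and no spot was saturated. Spots of a probe were averaged and divided by the array's 75th percentile (signals of 178.9 and 134.0). Of 55664 probes, 27226 were named through RefSeq accessions (GRCm38.p6). A gene takes its brightest probe, and a probe is well above background where at least 50% of its spots are. Where 1 array was not well above background, the dim side was taken as its own signal or the lowest well-above-background signal of that array, whichever was higher, and the result is written as at least N-fold or as a bound. The technical SD of a log2 difference, over 224 probes with at least 9 spots kept on each array, was 0.17 (0.27 in the dimmest and 0.06 in the brightest of 3 equal groups). The number of arrays limits the precision.

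Named genes are the 10 members, list genes at least 2-fold apart (at most 6 a list) and 10 fixed genes. Ak4, Trf, Zfp36l1 and single marker genes were named after their values were seen. Members and lists were chosen with earlier results of these data known. Alternatives were spike-in scaling (8 of 10 controls above background on both arrays), a percentile over detected probes, quantile normalization, normexp (limma 3.58.1, offset 50, on the median spot signals that the files hold), the authors' table, other filters, the mean over probes and a fold of 1.5. The calculation was tested on simulated data.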

Additional observations from a re-analysis of the deposited data

How the results depend on the processing

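Hif3a stayed past 2-fold toward fetal liver and Vegfa past 2-fold toward bone marrow under all 8 alternatives for computing a gene's value. Not all of these could move the values. The filter on detection on both arrays and the lack of a filter left both genes unchanged. The authors' table, a ratio to nearly the same constants, gave 4.44 for Hif3a and -2.83 for Vegfa. With spike-in scaling, normexp and the mean over probes, Hif3a was at 4.11, 3.54 and 3.64 and Vegfa at -3.16, -2.56 and -3.05. The count of members past 2-fold toward bone marrow was 2 without the filter on dim probes, where Egln1 was at -1.35 from a signal not above background. Under normexp Egln1 had no value, since its bound came to under 1-fold. Spike-in scaling moved the median of the members to -0.0785, of all genes to -0.23, of the Vhl ligase partners to -0.0640, of other regulators to -0.16, of bHLH-PAS genes to -0.19, of glycolytic targets to -0.0326, of other targets to -0.53, of VEGF genes to -0.51 and of mitophagy genes to -0.43, by its own construction. Under normexp the Vhl ligase partners were at -0.00384 and VEGF genes at 0.0806, and without a filter VEGF genes were at 0.0328. The cause of these was not tested. All genes past 2-fold toward fetal liver and toward bone marrow numbered 513 and 1745 with spike-in scaling, 379 and 606 with normexp, 1693 and 1654 without a filter, and 2355 and 1992 at 1.5-fold. No paired analysis was possible because each group has 1 array. Signals near the detection limit, as those of Egln1, of the dim Epas1 and Hif3a probes and of Bhlhe40 in fetal liver, limit what can be said of them.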
